A study of Mus musculus with 3 samples.

Results

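Isolated wide open sites, as named here, are single listed intervals that stand alone on mouse autosomes 1 to 19. They were chosen from 1 list of potential open-chromatin peaks in mouse embryonic stem cells (mESCs) by 3 of its values. Whether each of them is open chromatin was not tested. An interval qualified if it was 200 to below 3000 bp wide, scored below 0.045 and had no other interval of the list within 10 kb of either edge. Of 348759 intervals in the list, 344785 lay on autosomes and 65373 met the width and score limits. Of these, 3921 had no neighbour and are the isolated sites. The other 61452 had a neighbour within 10 kb and served as the comparison.

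FAIRE stands for formaldehyde-assisted isolation of regulatory elements. After fixation and shearing, the fragments that formaldehyde has not bound to histones are extracted and sequenced. They come mostly from DNA free of nucleosomes, as at active promoters, enhancers and sites held open by insulator proteins. In stem cells, active genes often carry several such elements close together, whereas a distal enhancer or an insulator site can lie alone in a long stretch of closed chromatin. Type II topoisomerases pass one DNA duplex through another and relieve the tangles that arise when chromatin is transcribed or replicated.

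The series held 3 samples of wild-type mESCs of the mixed strain 129Sv-C57Bl/6. They comprised an input sample of genomic DNA, FAIRE DNA from control cells in DMSO, and FAIRE DNA from cells treated with ICRF-193 at 500 nM, a catalytic inhibitor of topoisomerase II. Both treatments lasted 16 h, in feeder-free cells, and each FAIRE sample's title names replicates 1 and 2 together. The intervals carry no sample names, so the list stands for the series as a whole, and no value here describes an effect of ICRF-193. No read depth is known for the list, and the markers of stem cells could not be checked from a list of positions. Each score is the authors' value for its interval, on a scale not given in the sources used here, and serves only to describe and rank intervals within the list. Positions are mm9 coordinates counted from 1. Sites were not assigned to genes, exons or introns, and no sequence is shown, because an mm9 genome and annotation were not used here.

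Isolation, width and score chose the sites, so their values on these measures are descriptions without a test. Intervals of 1 list are not replicates, and the 95% intervals given below cover counting error only. The isolated sites were 6.00% of the wide intervals (exact Clopper-Pearson interval 5.82 to 6.18%). Among all autosomal intervals of any width, 14991, or 4.35%, had no neighbour within 10 kb, and since the rule used this distance nothing is read from the difference. Most of these lone intervals, 10868 or 72.5%, were narrower than 200 bp. A further 197 were wide enough but scored at or above 0.045, and 5 were 3000 bp or wider. The 3921 isolated wide sites were thus 1.14% of the autosomal intervals. They covered 1135 kb, or 2.87% of the bases covered by autosomal intervals.

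Within the width limits of the rule, most isolated sites lay near the lower one. They were wide for the list, as lone autosomal intervals of any width had a median of 124 bp. Their median width was 262 bp (95% interval 259 to 264, interquartile range 228 to 319 bp), and 2681 of them, 68.4%, were narrower than 300 bp. The widest was 1073 bp, far below the limit of 3000 bp. Their median score was 0.0243 (95% interval 0.0240 to 0.0245), which was 1.89 times the lowest autosomal score of 0.0129. A score of at least 2 times the lowest was reached by 1603 sites, or 40.9%, and one of at least 3 times the lowest by 132, or 3.37%. Across the isolated sites width and score were related with Spearman's rho = 0.42 (n = 3921 sites), against 0.52 for the 61452 wide intervals with a neighbour. The sites share 1 list and 1 smoothing by F-Seq, so these correlations describe the list. No isolated site had the same width and score as another autosomal interval.

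Compared with wide intervals that had a neighbour, the isolated sites were narrower and scored slightly higher at the median. Intervals with a neighbour had a median width of 302 bp (interquartile range 244 to 405 bp), so the isolated sites were 0.87 times as wide. Widths of 500 bp or more were found for 162 isolated sites (4.13%) and for 8704 intervals with a neighbour (14.2%). The median score was 0.0229 with a neighbour, and the isolated sites stood at 1.06 times that value. The isolated median was the narrower one on 19 of 19 autosomes, at 253 to 280.5 bp against 292 to 312 bp, and the ranges did not overlap. It was also the higher-scoring one on 19 of 19 autosomes, at 0.0231 to 0.0253 against 0.0221 to 0.0237, and here the ranges overlapped. The isolated scores were less spread. At least 3 times the lowest score was reached by 3.37% of them and by 5.35% of intervals with a neighbour, whereas at least 2 times was reached by 40.9% and 36.6%.

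**Figure D1:**
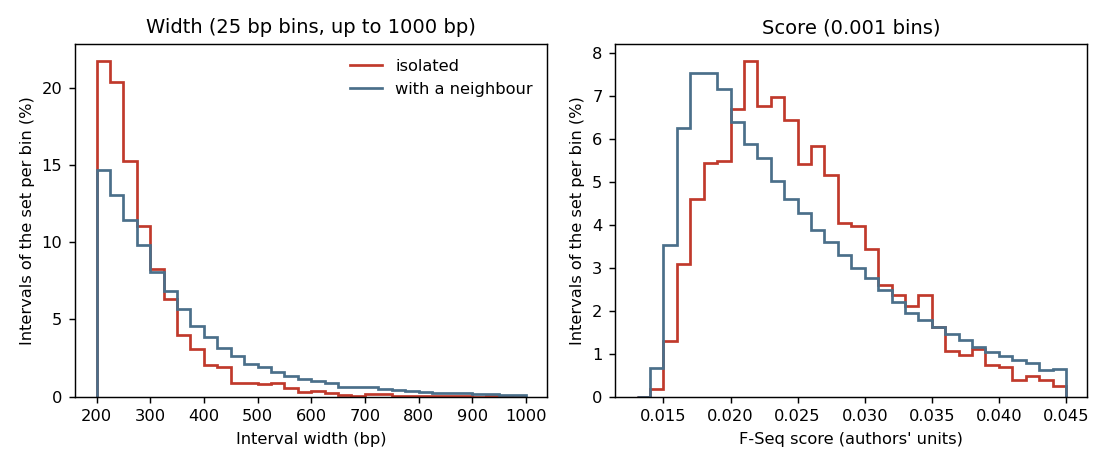
Distribution of width (left, bp) and F-Seq score (right, authors' units) as a percent of each set per bin, for isolated wide sites (n = 3921, red) and wide intervals with a neighbour within 10 kb (n = 61452, blue). Isolated sites are more concentrated near 200 bp, with a median of 262 against 302 bp, and their scores are more concentrated in the middle of the range.

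The higher score rested on intervals with a very close neighbour. Of the intervals with a neighbour, 66.7% had it within 500 bp and 34.2% within 20 bp, and 57.4% had a nearest neighbour narrower than 50 bp. Those with a neighbour within 500 bp (n = 41010) had a median score of 0.0221. The 20442 whose nearest neighbour lay over 500 bp away had a median score of 0.0243, and the isolated sites were at 0.999 times that value, with a higher median on 8 of 19 autosomes. The narrower width remained in that comparison. The median was 282 bp for these 20442 intervals, so isolated sites were 0.93 times as wide, and their median was lower on 19 of 19 autosomes.

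Score and width followed different courses as the nearest interval moved away. The median score of wide intervals rose from 0.0215 with a neighbour within 20 bp to 0.0247 with one at over 2 to 5 kb, and stayed at 0.0246 at over 5 to 10 kb. Among isolated sites it was 0.0246 (95% interval 0.0244 to 0.0250) for the 2087 sites with the nearest interval at up to 20 kb. It was 0.0242 (0.0235 to 0.0246) for the 1345 sites at over 20 to 50 kb and 0.0234 (0.0228 to 0.0240) for the 364 sites at over 50 to 100 kb. The 125 sites with no interval within 100 kb had the lowest median of the isolated sites, 0.0221 (0.0210 to 0.0233). The median width was 311 bp with a neighbour within 20 bp and 332 bp at over 20 to 100 bp, and fell from there to 268 bp at over 5 to 10 kb. It then changed little, from 266 bp at up to 20 kb to 258 bp beyond 100 kb, where the 95% interval was 243 to 278 bp.

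**Figure D2:**
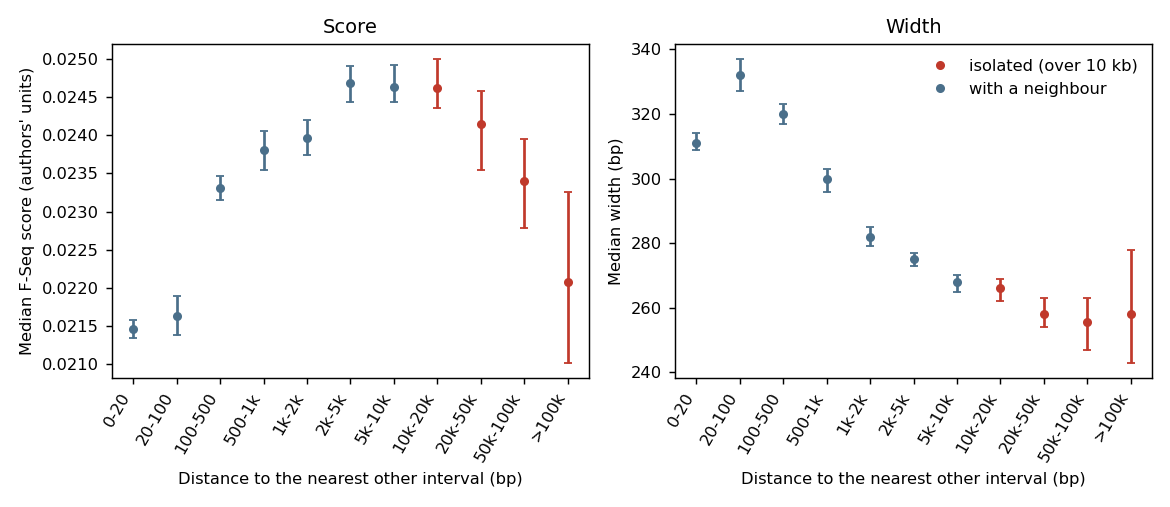
Median F-Seq score (left, authors' units) and median width (right, bp) of wide intervals by the distance to the nearest other interval, with 95% order-statistic intervals of the median; the vertical axes do not start at 0. Scores are highest for distances of over 2 to 20 kb and lower for the most remote sites, while width is highest at over 20 to 100 bp, falls to 268 bp by 10 kb and lies between 255.5 and 266 bp for isolated sites (red).

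At the same score, isolated sites were narrower in each of 7 score bins. In the lowest bin, below 0.0179, the medians were close, at 231 bp for 335 isolated sites and 240 bp for 10391 intervals with a neighbour. From 0.0229 to below 0.0279 they were 254 bp (n = 1161) and 307 bp (n = 13331), a ratio of 0.83. From 0.0329 to below 0.0379 they were 321 bp (n = 323) and 401 bp (n = 5094), a ratio of 0.80. The highest bin, from 0.0429 to the limit, held only 26 isolated sites, with a median of 425.5 bp (95% interval 351 to 467) against 492 bp. Over all 3921 sites, the median width was 0.86 times the median of intervals with a neighbour in the same bin (95% interval 0.85 to 0.86). Set against intervals whose nearest neighbour was over 500 bp away it was 0.94 times. The share of wide intervals that were isolated was highest in the middle of the score range, at 8.01% (7.57 to 8.47%) from 0.0229 to below 0.0279. It was 3.12% in the lowest bin and 2.99% (1.96 to 4.35%) in the highest.

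**Figure D3:**
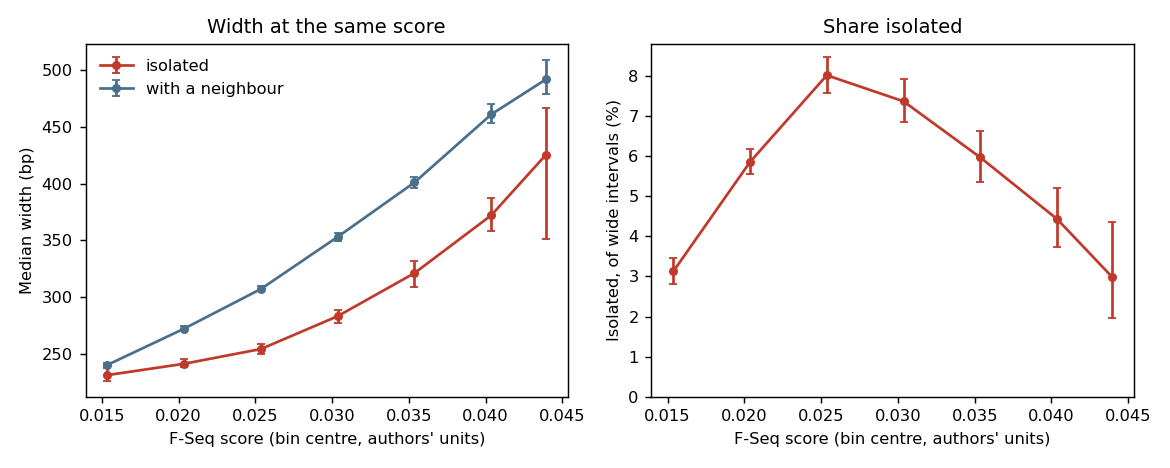
Left, median width (bp) of isolated wide sites (red) and of wide intervals with a neighbour (blue) in 7 bins of F-Seq score, with 95% order-statistic intervals; right, percent of wide intervals that are isolated in the same bins, with exact binomial intervals. The width axis does not start at 0; the red points lie below the blue in every bin, and the isolated share peaks at 8.01% in the bin from 0.0229 to below 0.0279.

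The share without a neighbour also varied with width, over all autosomal intervals. It was 1.16% among those of 1 to below 10 bp, 8.32% (8.09 to 8.55%) at 100 to below 200 bp and 8.20% (7.91 to 8.51%) at 200 to below 300 bp. It then declined to 5.30% at 300 to below 400 bp, 3.44% at 400 to below 500 bp and 0.59% (0.26 to 1.17%) at 1000 to below 3000 bp, where 8 of 1345 intervals were isolated. The lower width limit of 200 bp therefore cut through the class in which intervals most often stood alone. On either side of it, 352 isolated sites of 200 to below 210 bp had a median score of 0.0210, and 422 lone intervals of 190 to below 200 bp that were left out had 0.0203. The highest-scoring isolated site had a score of 0.044999, and the first lone wide interval left out had 0.045028. The closest neighbour of an isolated site lay 10003 bp away, and the most distant neighbour in the comparison set 9994 bp away.

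Most isolated sites had their nearest interval at most 20 kb away. The median distance was 19019 bp on the nearer side, and for 2087 sites, 53.2%, it was at most 20 kb. On the farther side the median was 43.7 kb, over the 3917 sites with an interval on both sides. For 489 sites (12.5%) both sides were empty for over 50 kb, and for 125 (3.19%) for over 100 kb. Chromosome 2 had the most of the 489, 39, and chromosome 19 the fewest, 7, which were 11.7% and 7.37% of the isolated sites of those chromosomes. The nearest interval had a median width of 92 bp and a median score of 0.0145, and 85.5% of isolated sites scored above it. Wide intervals with a neighbour scored above their nearest interval in 88.8% of cases, and that interval had a median width of 24 bp and a median score of 0.0134. For 400 sites, 10.2%, it was itself an isolated wide site, and 250 of these were each other's nearest interval. The nearest interval of at least 200 bp lay at a median of 35.6 kb from an isolated site and of 2.05 kb from a wide interval with a neighbour.

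Beyond the 10 kb used to choose them, isolated sites had fewer intervals around them than wide intervals with a neighbour had. Within 100 kb of the midpoint on either side there was a median of 13 other intervals (interquartile range 5 to 27), against 70 (38 to 117) around intervals with a neighbour, which was 5.38 times as many. Within 1 Mb the medians were 220 (117 to 370) and 468 (305 to 716), a ratio of 2.13. The rule itself empties the inner 10 kb and is met more often where intervals are few. The counts at 100 kb and 1 Mb are therefore in part set by it, and the interquartile ranges at 1 Mb overlapped. Dense surroundings were not absent: 368 isolated sites, 9.39%, had 50 or more other intervals within 100 kb, compared with 65.6% of intervals with a neighbour.

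Isolated sites were often the highest-scoring interval of their surroundings, which depended on how many others there were. Of the 3921, 1377 (35.1%, 95% interval 33.6 to 36.6%) had the highest score within 100 kb on either side, against 8.32% (8.10 to 8.54%) of intervals with a neighbour. The 1377 include the 125 sites with no other interval in that range. At similar numbers of other intervals, up to 50, the shares lay closer together. Surroundings with over 50 others were not compared in this way, although 65.6% of intervals with a neighbour had 50 or more. With 1 to 5 others it was 66.4% (63.2 to 69.5%) of 891 isolated sites and 65.4% (62.3 to 68.3%) of 1013 intervals with a neighbour. With 6 to 20 others it was 34.3% (31.94 to 36.72%) and 30.7% (29.50 to 31.86%). With 21 to 50 others it was 12.3% (10.3 to 14.4%) and 11.3% (10.8 to 11.9%). Only the 95% intervals for 6 to 20 others did not overlap, at 31.94 against 31.86%, and they cover counting error only. The numbers of others were not matched within a class. Whether the shares differ at the same number of others was therefore not tested.

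The density of isolated sites varied less between autosomes than that of wide intervals with a neighbour. They numbered 1.62 ± 0.17 per Mb of span (SD over autosomes, n = 19). Chromosome 13 had the most for its span, 227 sites or 1.94 per Mb (exact Poisson interval 1.69 to 2.20). Chromosome 8 had the fewest for its span, 158 sites or 1.23 per Mb (1.04 to 1.43). Its interval did not overlap that of chromosome 13, but these 2 were picked as the extremes of 19 autosomes and their difference was not tested. The highest value was 1.58 times the lowest, whereas wide intervals with a neighbour ranged 2.32-fold, from 16.9 per Mb on chromosome 12 to 39.1 on chromosome 11. Across autosomes the density of isolated sites showed almost no rank relation to the density of all intervals of the same list (Spearman's rho = 0.0018, n = 19 autosomes). The isolated share of wide intervals was lower where that density was higher (rho = -0.93), from 8.43% on chromosome 3, with 105 intervals per Mb, to 3.66% on chromosome 8, with 197 per Mb. A chromosome with more intervals offers more candidates but leaves fewer empty stretches. The smaller range of the density of isolated sites and both rank relations are therefore in part set by the rule. Chromosome 11, the densest at 215 intervals per Mb, had 1.76 isolated sites per Mb (1.53 to 2.01).

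**Figure D4:**
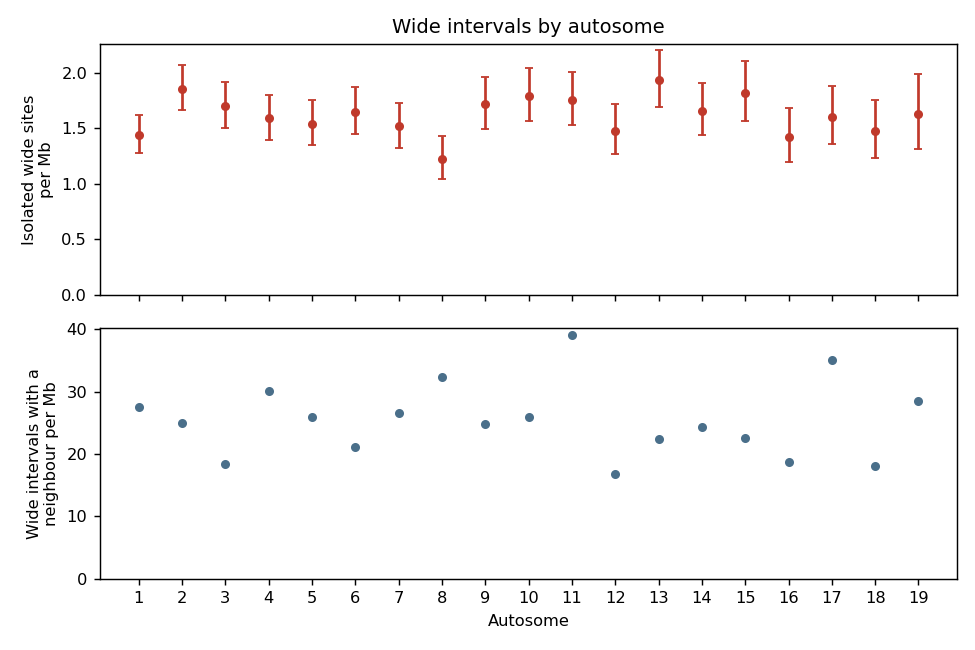
Isolated wide sites per Mb (upper, with exact 95% Poisson intervals) and wide intervals with a neighbour per Mb (lower) on each of 19 autosomes; both vertical axes start at 0. Isolated sites vary from 1.23 per Mb on chromosome 8 to 1.94 on chromosome 13, and intervals with a neighbour from 16.9 on chromosome 12 to 39.1 on chromosome 11.

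The sites were also spread along the chromosomes. Dividing each autosome's span into 5 equal parts, from the centromeric start of the mm9 sequence to its far end, placed 19.31 to 20.99% of isolated sites in each part. Of the intervals with a neighbour, 26.7% (26.3 to 27.0%) lay in the last part and 17.1 to 19.6% in each of the others. The rule is met less often where intervals are dense, so this difference in position is in part set by the rule. In 2425 windows of 1 Mb there were 1.62 isolated sites on average, and the variance of their number was 1.24 times the mean, against 37.1 times for wide intervals with a neighbour. The rule sets this contrast in part, since it keeps isolated sites over 10 kb apart and gives each interval of the other set a neighbour, and the ratio also grows with the mean number per window. A window held none in 550 cases (22.7%) and 5 or more in 93 (3.84%). Neighbouring isolated sites lay a median of 384 kb apart.

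The isolated sites were most numerous in windows of middling density. Windows were ranked by their number of intervals of any kind and divided into 5 classes of 485. The sparsest class, with at most 27 intervals, held 12.4% of isolated sites, the middle class, with 65 to 134, held 25.8%, and the densest, with 240 to 1323, held 16.0%. Intervals with a neighbour increased throughout, from 1.32% in the sparsest class to 55.9% in the densest. Per window there were 1.0, 2.08 and 1.29 isolated sites in the sparsest, middle and densest classes. In the sparsest class 37.4% of wide intervals were isolated, and in the densest 1.79%. The windows were ranked by the density on which the 10 kb rule acts, so these patterns are in part set by the rule.

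**Figure D5:**
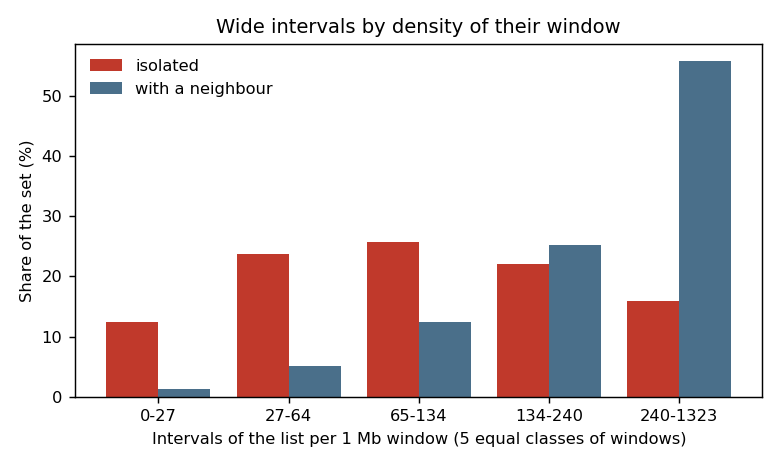
Percent of isolated wide sites (red) and of wide intervals with a neighbour (blue) that fall in each of 5 equal classes of 2425 autosomal windows of 1 Mb, ordered by the number of intervals of any kind per window (range under each pair; windows with equal numbers can fall on either side of a boundary). The red bars peak at 25.8% in the middle class and the blue bars rise to 55.9% in the densest.

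The 2 windows with the most isolated sites, singled out after their values were seen, were at 175000001 to 176000000 of chromosome 2 and 53000001 to 54000000 of chromosome 14. The first held 11 isolated sites among 37 intervals and the second 10 among 49. Only 4 and 9 wide intervals with a neighbour lay in them. How well reads can be placed in these windows was not examined. Sites near chromosome ends or long empty stretches were few in both sets. Of the 3921, 46 (1.17%, 95% interval 0.86 to 1.56%) had their midpoint at most 500 kb from where the listed intervals of a chromosome begin or end, or from an empty stretch of 1 Mb or more, against 1.69% (1.59 to 1.79%) of intervals with a neighbour. Within 1 Mb the shares were 2.65% and 2.59%.

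The 5 highest-scoring isolated sites lay on 5 chromosomes and had scores from 3.47 to 3.50 times the lowest score. The first was at 109417518 to 109418131 of chromosome 12, with a width of 614 bp, a score of 0.044999 and empty stretches of 24.9 and 26.8 kb on its sides. The second was at 129961040 to 129961479 of chromosome 5 (440 bp), and the third at 76576971 to 76577314 of chromosome 11 (344 bp). The other two were at 53322554 to 53322969 of chromosome 19 (416 bp) and 50568474 to 50568970 of chromosome 7 (497 bp). The shortest empty stretch beside any of them was 12.5 kb. Within the wider surroundings, 4 of the 5 had 385 to 645 other intervals within 1 Mb, above the median of 220, and the site on chromosome 12 had 173. The score limit of the rule set the upper end of these scores.

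The widest isolated site was at 65213950 to 65215022 of chromosome 7, with 1073 bp, a score of 0.0329 and empty stretches of 211 and 73.4 kb. The next were at 27978619 to 27979570 of chromosome 19 (952 bp, score 0.0415) and 22730953 to 22731901 of chromosome 5 (949 bp, score 0.0308). They were followed by 13492689 to 13493575 of chromosome 4 (887 bp, score 0.0329) and 89105455 to 89106329 of chromosome 17 (875 bp, score 0.0243). The last of these had a score at the median of all isolated sites despite its width. None of the 5 widest was among the 5 highest-scoring.

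The most remote site was at 17815547 to 17815790 of chromosome 15. It was 244 bp wide and scored 0.0188, and the nearest intervals lay 690 kb to its left and 778 kb to its right. The second was at 48383131 to 48383486 of chromosome 10 (356 bp, score 0.0206), with 433 and 354 kb. The third, at 7866624 to 7866876 of chromosome 2, was 253 bp wide and scored 0.0168, with 346 and 400 kb. The others were at 69039679 to 69040010 of chromosome 5 (332 bp, score 0.0196) and 125032801 to 125033236 of chromosome 3 (436 bp, score 0.0176). All 5 scored below the median of the isolated sites, from 1.30 to 1.60 times the lowest score, and had 20 to 74 other intervals within 1 Mb.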

How the data were processed

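The deposited file was 1 list of intervals for all 3 samples. Reads were aligned with Bowtie to mm9, per the submitters' processing notes; the list's name gives F-Seq, which smooths reads into a density and lists stretches above a threshold. For F-Seq settings, use of the input and the samples behind the list: not given in the sources used here. Column 5 is a score deposited by the authors. Distances were bases between interval edges, and any interval of the list counted as a neighbour. Span ran from a chromosome's first to its last interval. Medians have order-statistic 95% intervals, shares exact binomial and densities exact Poisson intervals. Python 3.11.15, pandas 2.3.3, numpy 2.4.6, scipy 1.17.1 and matplotlib 3.10.9 were used, and the procedures were tested on simulated intervals. The design allows no test between treatments or sites, and none was run. Named sites were the 5 highest-scoring, 5 widest and 5 most remote. The rule and the comparisons were chosen with earlier results of these data known. Sequence composition, gene starts and promoter sequences were not analysed here, because the reference tables at hand are of GRCm38.p6 and coordinates were not converted.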

Additional observations from a re-analysis of the deposited data

How the results depend on the processing

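No paired analysis was possible because the list has no values per sample, and no replicate could be left out. Of 51 alternative values for 10 results, 8 stayed within the 95% interval of the reported value or within 1.5 times of the reported count, 41 moved outside it, and 2, both of them ratios of median scores, fell below 1. That ratio, 1.06, became 0.96 when only scores at or above the median of wide intervals entered. It was 0.999 against intervals whose nearest neighbour was over 500 bp away, a comparison chosen after seeing the data, with a 95% interval of 0.988 to 1.009 that includes 1. Counting error alone is small here, so many small shifts count as moved. In the order number of isolated sites, percent isolated, ratio of median scores, ratio of median widths and width ratio at the same score, the reported values were 3921, 6.00%, 1.06, 0.87 and 0.86. They were 7353, 11.3%, 1.05, 0.73 and 0.74 after joining intervals within 500 bp. They were 1240, 3.80%, 1.04, 0.89 and 0.88 with a minimum width of 300 bp. Counting only intervals of at least 50 bp as neighbours gave 7223, 11.0%, 1.04, 0.88 and 0.88, and the 7223 included all 3921. Scores at or above the median gave 2143 sites, 6.94%, and 0.78 and 0.81 for both width ratios. A distance of 5 kb gave 7224 sites, 11.1% and a score ratio of 1.07. A distance of 20 kb gave 1834 sites, 2.81%, a score ratio of 1.03 and a width ratio of 0.86. Against intervals with the nearest neighbour over 500 bp away the width ratios were 0.93 and 0.94. The median density over autosomes, 1.63 per Mb, was 3.002 at 5 kb, 0.76 at 20 kb and 3.02 with neighbours of at least 50 bp. The distance between isolated sites, 384 kb, was 198, 817 and 204 kb in that order. The number of other intervals around isolated sites over that around intervals with a neighbour, 0.19 within 100 kb and 0.47 within 1 Mb, was 0.29 and 0.58 at 5 kb, 0.10 and 0.36 at 20 kb, and 0.24 and 0.52 with neighbours of at least 50 bp. The share near ends, 1.17% within 500 kb, was 2.65% within 1 Mb. A shorter distance or fewer accepted neighbours admits more sites by construction. Alternatives for sequence composition and gene starts were not run, because an mm9 genome and annotation were not used. The unknown read depth limits what an empty stretch can show, and whether reads can be placed in such a stretch was not examined.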

Other observations

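Chromosome X, outside the autosomes used above, gave 150 isolated sites among the 883 of its intervals that met the same width and score limits. That was 17.0% (95% interval 14.6 to 19.6%), above the highest autosome at 8.43%, and 0.92 sites per Mb (0.78 to 1.08), below the lowest autosome at 1.23. Chromosome X had 23.4 intervals per Mb, against 99.8 on chromosome 12, the autosome with the lowest density. Among autosomes the isolated share was higher where intervals were fewer. The high share on chromosome X is therefore in part set by the rule. Its isolated sites had a median width of 257 bp, against 297 bp for its wide intervals with a neighbour, the same order as on the autosomes. Their median score was 0.0224, against 0.0237 with a neighbour, whereas on 19 of 19 autosomes the isolated median was the higher one. The difference between chromosome X and the autosomes was not tested.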
